A study of Mus musculus with 9 samples.

Results

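The adult hemoglobin genes and Alas2, the red cell gene that starts heme synthesis, were followed in CD4 T cells sorted from the Peyer's patches of mice as T follicular helper (Tfh) cells. The 5 genes were chosen by symbol from the 54146 genes of the deposited table, and all 5 were among the 15521 genes that passed the filter on low counts. Tfh cells help B cells in the germinal centres of lymphoid tissue, and Peyer's patches are the lymphoid tissue in the wall of the small intestine. Cells positive for CD4, CXCR5 and PD1 were sorted from 2 groups, WT/mut mice, in which 1 of the Tgfbr1 alleles was mutant (5 libraries, replicates 6 to 10) and their wild-type (WT) littermates (4 libraries, replicates 1, 3, 4 and 5). Tgfbr1 encodes a receptor subunit for TGF-beta, and the series asks how this signal to T cells shapes Tfh cells. The labels state no strain, age, sex, treatment or sorting day, do not say what the mutation is or which cells carry it, and do not say whether libraries came from separate animals. All p-values therefore measure the spread between these libraries only.

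Hemoglobin is a tetramer of alpha-like and beta-like chains, each of which holds a heme group with an iron atom that binds oxygen. In the mouse, adult alpha chains come from Hba-a1 and Hba-a2 and adult beta chains of the single haplotype from Hbb-bs and Hbb-bt, while separate genes serve the embryo. Red cell precursors make both chains in large amounts with heme, whose first step is catalysed in them by Alas2 and in other cells by Alas1. Young red cells that have lost their nucleus still carry globin mRNA.

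Hbb-bs (ENSMUSG00000052305.6, chromosome 7, 103826534 to 103828096, minus strand) and Hbb-bt (ENSMUSG00000073940.3, chromosome 7, 103812524 to 103813996, minus strand) lie side by side on the GRCm38 assembly. Hba-a1 (ENSMUSG00000069919.7, chromosome 11, 32283511 to 32284465, plus strand) and Hba-a2 (ENSMUSG00000069917.7, chromosome 11, 32296489 to 32297298, plus strand) form the alpha pair. Alas2 (ENSMUSG00000025270.13) lies on the plus strand of chromosome X, 150547375 to 150570638. The coding sequences of Hba-a1 and Hba-a2 differed at 1 of 426 bases, and those of Hbb-bs and Hbb-bt at 1 of 441 bases, by global alignment of the GENCODE transcripts. Of the 50-base windows of the main transcript, 67.5% of Hba-a1, 86.9% of Hba-a2, 65.8% of Hbb-bs and 58.3% of Hbb-bt were also found in the other copy. Reads of the copies can therefore not always be told apart, and the split within each pair is an estimate of the authors' counting model. No window of Hba-a1 was found in Hbb-bs, and Hba-a2 and Hbb-bt were not compared across the pairs.

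The 250 bases before the RefSeq transcript start (GRCm38.p6) are shown for all 5 genes, since the genes differed in the same direction between the groups and the alpha copies are alike here too. Each is written 5′ to 3′ on the gene's own strand, and capitals mark 4 short motifs on either strand: the motif GATA with its reverse complement TATC, the motif CACCC with GGGTG as its reverse complement, the motif CCAAT with ATTGG as reverse, and the motif TATAA with TTATA. They cover chr7:103827929-103828178 for Hbb-bs, chr7:103813924-103814173 for Hbb-bt, chr11:32283422-32283671 for Hba-a1, chr11:32296242-32296491 for Hba-a2 and chrX:150547167-150547416 for Alas2. All 5 windows overlap the GENCODE gene intervals given above, since GENCODE and RefSeq place the start at different bases.
Hbb-bs: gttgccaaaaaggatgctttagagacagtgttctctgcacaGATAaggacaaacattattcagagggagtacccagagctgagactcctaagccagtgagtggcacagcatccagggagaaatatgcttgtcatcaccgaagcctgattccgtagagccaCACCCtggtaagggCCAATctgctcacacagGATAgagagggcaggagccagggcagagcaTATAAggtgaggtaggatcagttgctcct
Hbb-bt: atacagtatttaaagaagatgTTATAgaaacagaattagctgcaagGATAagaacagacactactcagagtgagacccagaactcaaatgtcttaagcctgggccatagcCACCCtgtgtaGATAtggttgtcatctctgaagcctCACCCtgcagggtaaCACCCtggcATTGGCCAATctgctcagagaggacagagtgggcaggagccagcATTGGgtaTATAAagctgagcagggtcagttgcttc
Hba-a1: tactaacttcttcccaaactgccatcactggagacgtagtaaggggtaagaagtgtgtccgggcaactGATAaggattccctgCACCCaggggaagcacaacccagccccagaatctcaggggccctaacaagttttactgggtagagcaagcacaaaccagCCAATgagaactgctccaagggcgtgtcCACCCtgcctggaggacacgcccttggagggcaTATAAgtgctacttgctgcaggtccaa
Hba-a2: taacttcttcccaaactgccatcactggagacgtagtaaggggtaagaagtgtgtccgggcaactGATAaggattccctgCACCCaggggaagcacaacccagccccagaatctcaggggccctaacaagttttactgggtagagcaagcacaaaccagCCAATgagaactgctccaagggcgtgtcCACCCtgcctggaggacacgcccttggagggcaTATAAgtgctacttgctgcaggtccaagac
Alas2: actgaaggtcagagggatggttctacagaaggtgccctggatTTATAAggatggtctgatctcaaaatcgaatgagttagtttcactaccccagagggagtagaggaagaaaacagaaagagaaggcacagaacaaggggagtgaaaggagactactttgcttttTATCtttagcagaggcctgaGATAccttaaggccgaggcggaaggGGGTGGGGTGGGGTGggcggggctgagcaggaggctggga

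The alpha promoters held a common run of 247 identical bases, offset by their annotated starts, whereas the longest run that Hbb-bs and Hbb-bt had in common was 14 bases. GATA, the core of the site of the red cell factor GATA1, occurred 2 times before Hbb-bs, Hbb-bt and Alas2, and 1 time before each alpha gene. CACCC, the core of the site of the red cell factor KLF1, occurred 1 time before Hbb-bs, 3 times before Hbb-bt, 2 times before each alpha gene and 3 times before Alas2, there as adjacent copies of the reverse complement. A TATAA began 27 to 30 bases before the start in the 4 globin genes. Hbb-bt held 1 more copy, on the other strand at 229 bases, and in Alas2 the motif lay at 207 bases, where both strands overlap in 1 site. CCAAT was found before each globin gene, in Hbb-bt 3 times of which 1 pair abuts as a palindrome, and not in the Alas2 window. Short motifs are common: of 32851 promoter windows of the same length, 53.6% held GATA, 52.0% CACCC, 33.8% CCAAT and 22.8% TATAA, so a match is a description of the letters and no more.

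Globin and Alas2 mRNA was detected in all 9 libraries and was 2.74 to 3.84 times as high in WT/mut as in WT libraries, by gene. The 5 genes together took 0.0580% ± 0.0208 of all counts in WT/mut libraries (SD, n = 5) and 0.0197% ± 0.00777 in WT libraries (SD, n = 4). Levels below are in counts per 1000000 counts of the library (CPM), with library sizes scaled by the TMM method. The 4 globin genes summed to 567 ± 200 CPM in WT/mut libraries, against 196 ± 76.1 CPM in WT libraries. The lowest WT/mut library, replicate 7, stood at 396 CPM and the highest WT library, replicate 3, at 280 CPM, so the groups did not overlap. In bulk RNA, a different number of globin-bearing cells and a different amount of globin mRNA per cell cannot be told apart.

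**Figure D1:**
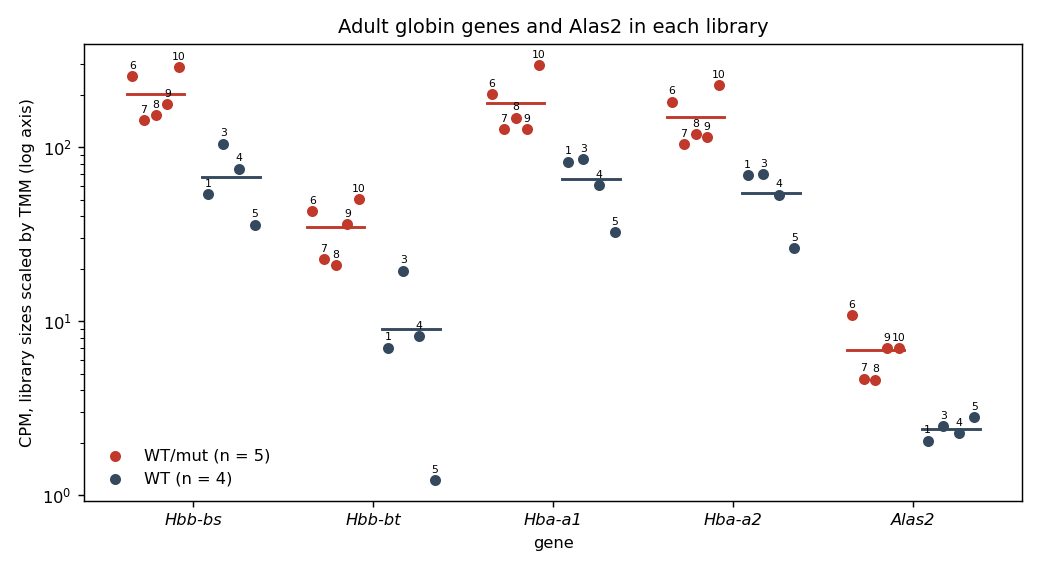
Level of each gene in each library, in CPM on a log axis; points are libraries with their replicate numbers, and bars are group means (WT/mut, n = 5; WT, n = 4). For all 5 genes the WT/mut points lie above every WT point, and Hbb-bt in WT replicate 5 lies lowest at 1.22 CPM.

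The beta-globin gene Hbb-bs stood at 256, 143, 152, 177 and 288 CPM in WT/mut replicates 6 to 10, against 54.0, 105, 75.3 and 35.9 CPM in WT replicates 1, 3, 4 and 5. Replicates 6 and 10 were the high WT/mut libraries, replicate 5 was the low WT library, and the groups did not overlap. Hbb-bs had a log2 fold change, WT/mut over WT, of 1.59 ± 0.31 (SE) and did not pass the threshold of 0.05 (edgeR adjusted p = 0.0951).

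Its neighbour Hbb-bt, which held the smaller part of the estimated beta-globin counts, stood at 42.8, 22.7, 21, 36.1 and 50.5 CPM in WT/mut replicates 6 to 10, against 7.06, 19.5, 8.23 and 1.22 CPM in WT replicates 1, 3, 4 and 5. The lowest WT/mut library was only 1.07 times the highest WT library, and WT replicate 5 was far below the other WT libraries. The fold change was the largest of the 5 and also the least precise, at 1.94 ± 0.60 on the log2 scale (edgeR adjusted p = 0.283). Without WT replicate 3 it was 2.66 (adjusted p = 0.153) and without WT replicate 5 it was 1.57 (adjusted p = 0.311).

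The alpha-globin gene Hba-a1 stood at 202, 127, 148, 127 and 297 CPM in WT/mut replicates 6 to 10, against 82.5, 85.7, 60.4 and 32.3 CPM in WT replicates 1, 3, 4 and 5. Its copy Hba-a2 stood at 183, 104, 118, 114 and 227 CPM in WT/mut replicates 6 to 10, against 68.9, 70.1, 53.3 and 26.2 CPM in WT replicates 1, 3, 4 and 5. Both copies were highest in WT/mut replicate 10 and lowest in WT replicate 5, with no overlap between the groups. The log2 fold changes were 1.47 ± 0.33 for Hba-a1 (edgeR adjusted p = 0.141) and 1.45 ± 0.31 for Hba-a2 (edgeR adjusted p = 0.131). With each pair of copies summed, alpha-globin was at 1.46 ± 0.32 (edgeR adjusted p = 0.136) and beta-globin at 1.64 ± 0.33 (edgeR adjusted p = 0.106).

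Alas2, the heme enzyme of red cell precursors, stood at 10.8, 4.68, 4.62, 7.01 and 6.99 CPM in WT/mut replicates 6 to 10, against 2.06, 2.49, 2.27 and 2.82 CPM in WT replicates 1, 3, 4 and 5. These levels rest on 149 to 359 counts per WT/mut library and 65 to 122 counts per WT library. Replicate 6 was the highest WT/mut library for this gene, whereas replicate 10 was highest for all 4 globin genes. WT replicate 5, lowest in every globin gene, was the highest WT library for Alas2. The log2 fold change was 1.50 ± 0.31 (edgeR adjusted p = 0.106).

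By edgeR, 0 of the 5 genes passed over all genes tested, against 0.0322% of all tested genes that rose and 0.122% called in either direction. All 5 had an unadjusted p under 0.05 with a higher level in WT/mut, from 0.000325 for Hbb-bs to 0.00843 for Hbb-bt, as did 5.69% of tested genes. All 5 had separate CPM ranges with WT/mut higher, as did 2.09% of tested genes. The exact two-sided permutation test of the mean log2 CPM gave p = 0.00794 for each of the 5, the smallest p that the 126 splits allow. Separate ranges already place this p at or next to its smallest value, so it restates the separation and is no further support. DESeq2 called all 5, with adjusted p between 8.86e-05 for Hbb-bs and 0.0264 for Hbb-bt, in a fit that called 1.53% of its genes as higher in WT/mut and 2.82% in either direction, and limma-voom called 0 of the 5. The genes share a source of reads in pairs and were chosen with earlier results known, so their number is not a count of independent results.

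Per kilobase of annotated exon, the order of levels was Hbb-bs, Hba-a2, Hba-a1, Hbb-bt and Alas2 in both groups. Hbb-bs was at 265 ± 84.5 CPM per kb in WT/mut and 87.8 ± 38.5 CPM per kb in WT libraries. Hba-a2 was at 224 ± 80.2 and Hba-a1 at 222 ± 89.2 CPM per kb in WT/mut, against 81.9 ± 30.6 and 80.3 ± 30.3 CPM per kb in WT libraries. The SDs of these 3 genes overlapped, but they measure the spread between libraries, and the genes were not compared within each library. Hbb-bt followed at 49.3 ± 18.1 CPM per kb in WT/mut and 12.8 ± 10.9 in WT libraries, and Alas2 at 2.84 ± 1.05 in WT/mut and 1.00 ± 0.135 in WT libraries. Among 15513 tested genes with a known exon length, Hbb-bs ranked 114 in WT/mut and 572 in WT libraries by this measure, and Alas2 ranked 8774 in WT/mut and 10965 in WT libraries.

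Ratios between these genes within a library do not depend on its depth, and they were compared in 3 tests. Hbb-bt made up 14.4% ± 1.8 of adult beta-globin counts in WT/mut (SD, n = 5) and 10.1% ± 5.2 in WT libraries (SD, n = 4). The share lay between 12.1% and 16.9% in WT/mut libraries, against 11.6%, 15.7%, 9.86% and 3.30% in WT replicates 1, 3, 4 and 5. WT replicate 5 was lowest, with an exact 95% binomial interval from 2.48% to 4.29%, which covers the sampling of reads only and not the error of the split between copies. The groups overlapped, and the exact two-sided permutation p was 0.103 (Benjamini-Hochberg adjusted p = 0.310 over the 3 ratios). The difference of 4.29 percentage points was 2.02 without WT replicate 5 (exact permutation, adjusted p = 0.50) and 6.16 without WT replicate 3 (exact permutation, adjusted p = 0.0536).

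The count ratio of alpha-globin to beta-globin lay between 1.13 and 1.55 in WT/mut libraries, against 2.48, 1.25, 1.36 and 1.58 in WT replicates 1, 3, 4 and 5. WT replicate 1 was the library with an excess of alpha-globin, and the other 8 lay between 1.13 and 1.58. The log2 ratio averaged 0.45 ± 0.19 in WT/mut and 0.68 ± 0.44 in WT libraries (exact permutation p = 0.373, adjusted p = 0.560). The difference of -0.23 was -0.02 without WT replicate 1 and -0.35 without WT replicate 3. Within the alpha pair, the estimated part of Hba-a1 lay between 52.5% and 56.7% in WT/mut and between 53.1% and 55.2% in WT libraries.

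Alas2 had 15.8, 11.8, 10.5, 15.4 and 8.10 counts per 1000 globin counts in WT/mut replicates 6 to 10, against 9.69, 8.90, 11.5 and 29.4 in WT replicates 1, 3, 4 and 5. Its log2 ratio to globin averaged -6.38 ± 0.40 in WT/mut and -6.25 ± 0.79 in WT libraries (exact permutation p = 0.810, adjusted p = 0.810). The difference of -0.13 turned to 0.26 without WT replicate 5, so no direction is given. A p above the threshold does not show that the ratios are alike, and with 5 against 4 libraries the spread of the WT group limits all 3.

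**Figure D2:**
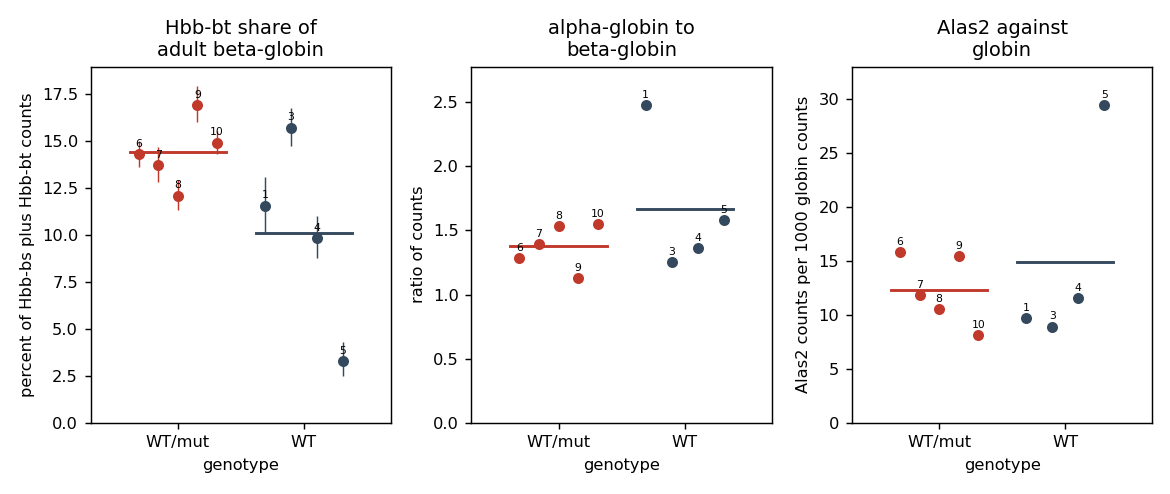
Ratios among the genes in each library: the Hbb-bt share of beta-globin counts (percent, with exact 95% binomial intervals), the alpha to beta ratio of counts, and Alas2 counts per 1000 globin counts; points are libraries with replicate numbers and bars are group means (WT/mut, n = 5; WT, n = 4). The groups overlap in each panel, and WT replicates 5, 1 and 5 lie apart in the left, middle and right panels, at 3.30%, 2.48 and 29.4.

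Other hemoglobin genes were near 0 in both groups. The embryonic beta-like gene Hbb-bh1 had 6 counts over the WT/mut and 5 over the WT libraries. The theta-like genes Hbq1a and Hbq1b had 6 and 3 counts in the WT/mut group and 0 in the WT group, and all 6 counts of Hbq1a were in replicate 7. Hbb-y, Hbb-bh0, Hbb-bh2, Hbb-bh3, Hba-x and Hba-ps4 had 0 counts in all 9 libraries, and so had the pseudogene Hba-ps3, found under an older symbol. Of the 3 globins of other tissues, cytoglobin (Cygb) was the 1 tested, with 1.87 ± 0.94 CPM in WT/mut libraries, against 1.52 ± 0.75 CPM in WT libraries (log2 fold change 0.29 ± 0.51, edgeR adjusted p = 0.840). Myoglobin (Mb) had 1 count and neuroglobin (Ngb) 0.

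The other enzymes of heme synthesis had fold changes near 0 or below; values with ± in brackets are log2 fold changes, WT/mut over WT, with their SE, here and for the lists that follow. Of the 8, all were tested, 0 passed by edgeR (0.122% of all tested genes did) 0 had an unadjusted p under 0.05 and 0 were called by DESeq2 or limma-voom. In sign, 7 fold changes were negative and 1 positive (50.2% of all tested genes were positive), with a median of -0.13, against 0.00 over all tested genes and 1.50 over the 5 genes. Alas1, the form of the first enzyme used outside red cells, averaged 72.5 ± 15 CPM in WT/mut libraries, against 78.1 ± 10.3 CPM in WT libraries (-0.11 ± 0.16, edgeR adjusted p = 0.813). Fech, which inserts the iron, had the lowest p, with 75.5 ± 10.3 CPM in WT/mut libraries, against 105 ± 40.8 CPM in WT libraries (-0.48 ± 0.22, edgeR adjusted p = 0.416). Of the intermediate steps, Cpox stood at -0.18, Ppox at -0.13, Alad at -0.13, Urod at -0.02 and Uros at 0.05.

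Of 35 genes of iron and heme transport, storage, regulation and breakdown, 34 were tested and 0 passed by edgeR. Their median log2 fold change was -0.13, with 10 positive and 24 negative values, and at an unadjusted p under 0.05 there were 1 higher and 4 lower (5.69% and 6.46% of all tested genes), and DESeq2 and limma-voom called 0. The lowest p belonged to Clpx, a mitochondrial chaperone that activates ALAS enzymes (-0.28 ± 0.10, edgeR adjusted p = 0.321), the iron sensor Aco1 (-0.31 ± 0.12, adjusted p = 0.368), the porphyrin exporter Abcg2 (-0.51 ± 0.22, adjusted p = 0.384) and the iron-sulfur scaffold Iscu (-0.41 ± 0.18, adjusted p = 0.397). The mitochondrial iron importer of red cell precursors, Slc25a37, averaged 10.5 ± 2.2 CPM in WT/mut libraries, against 6.36 ± 3.25 CPM in WT libraries (0.73 ± 0.32, edgeR adjusted p = 0.404). The transferrin receptor Tfrc stood at -0.01 ± 0.14 and the heme oxygenase Hmox1 at 0.06 ± 0.12, and these last 3 genes were named with their values known.

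Genes that define red cell precursors were at few counts. Of 22 red cell membrane and surface genes, 12 were tested and 0 passed by edgeR, DESeq2 or limma-voom or had an unadjusted p under 0.05, with 6 positive and 6 negative fold changes and a median of -0.03. The anion exchanger gene Slc4a1 had 20 counts in the WT/mut group, 15 of them in 1 library, and 0 in the WT group. All 32 counts of the ammonia channel gene Rhag were in WT/mut replicate 7. Epb42 and Cldn13 had 0 counts in every library, and 9 of the 22 stayed under 1 CPM everywhere. The 4 of lowest p were Bsg (-0.21 ± 0.09), Gypc (-0.23 ± 0.11), Slc2a1 (-0.23 ± 0.11) and the water channel Aqp1 (-2.28 ± 1.31), with edgeR adjusted p between 0.412 and 0.490.

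Among 9 red cell transcription factors, 6 were tested, 0 passed by edgeR, 1 had an unadjusted p under 0.05 (12.2% of all tested genes did), and the median was -0.28. DESeq2 called 1 of the list, Lmo2, as higher, in a fit that called 1.53% of all its genes as higher. KLF1, the activator of adult beta-globin, had 23 counts over the WT/mut and 4 over the WT libraries for its gene Klf1, and Tal1 had 0. Gata1 averaged 1.72 ± 1.59 CPM in WT/mut libraries, against 2.95 ± 0.64 CPM in WT libraries (-0.77 ± 0.59, edgeR adjusted p = 0.597). The others of lowest p were Lmo2 (0.93 ± 0.29, adjusted p = 0.283), Zfpm1 (0.32 ± 0.22, adjusted p = 0.554) and Nfe2 (-0.68 ± 0.57, adjusted p = 0.630).

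Of 25 genes of late red cells, 20 were tested, 0 passed by edgeR, 2 had an unadjusted p under 0.05 (12.2% of all tested genes did), and the median was 0.02, with 12 positive and 8 negative values. Xpo7, a nuclear export factor, averaged 97.6 ± 6.6 CPM in WT/mut libraries, against 80.1 ± 6.8 CPM in WT libraries without overlap (0.28 ± 0.10, edgeR adjusted p = 0.312), and was the 1 gene of this list that DESeq2 called (2.82% of all its genes). The next by p were ubiquitin Ubb (-0.60 ± 0.27, edgeR adjusted p = 0.409) and Fbxo7 (-0.29 ± 0.14, edgeR adjusted p = 0.441). Car1 and Trim58 had 1 count each and Hemgn had 13, all in WT/mut libraries. Many genes of this list, such as Ubb, are used by T cells as well, so its sum is no measure of red cells.

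**Figure D3:**
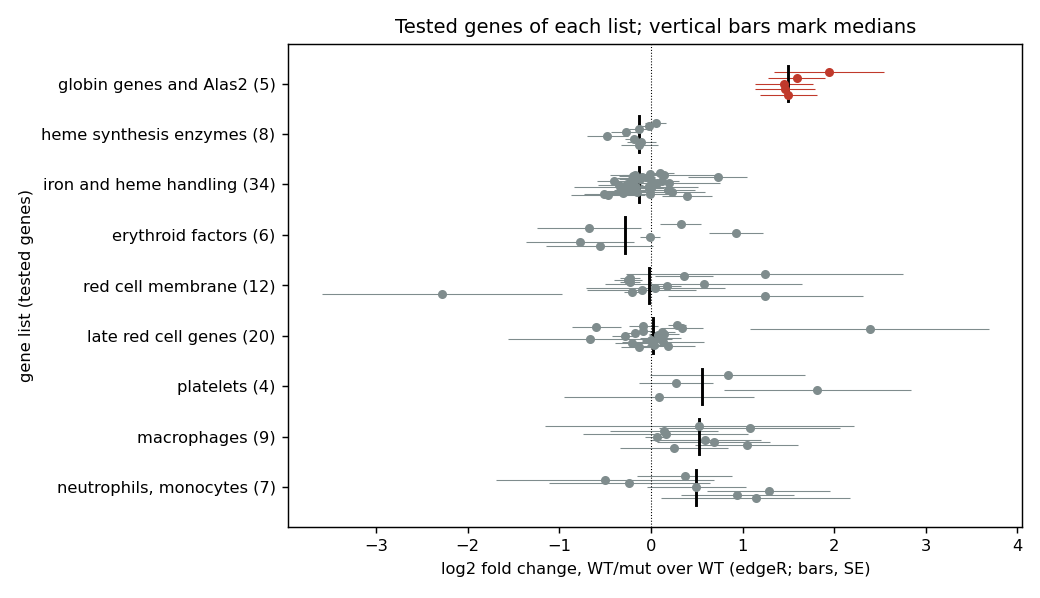
Log2 fold change, WT/mut over WT, of each tested gene (points, with SE bars) in the lists named on the vertical axis, with the number of tested genes in brackets and medians as vertical bars. The globin genes and Alas2 lie between 1.45 and 1.94. The medians of the heme synthesis, iron and red cell lists lie between -0.28 and 0.02. Those of the platelet, macrophage, and neutrophil and monocyte lists lie at 0.56, 0.53 and 0.49. Untested genes of few counts, such as Klf1, are not shown.

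Markers of other cell types are given by list, and by edgeR 0 genes of these lists passed. The part of these cells in the globin values was not tested. At an unadjusted p under 0.05 there were 7 plasma cell, 3 B cell, 1 epithelial and 1 endothelial gene higher, and 5 T cell and 2 epithelial genes lower, against 5.69% of all tested genes higher and 6.46% lower. The tested genes were 13 for plasma cells, 12 each for B cells, epithelium and T cells, and 8 for endothelium, so that the single epithelial and endothelial genes are near the share over all genes. DESeq2 called 4 plasma cell genes (Jchain, Igha, Igkc and Iglc1) and the platelet list's Vwf as higher and Icos and Il21 as lower, in a fit that called 2.82% of all its genes, and limma-voom called Icos. The 12 T cell and Tfh genes summed to 8610 to 9051 CPM in WT/mut libraries, against 9581 to 10318 CPM in WT libraries, without overlap. Among these, 3 were positive and 9 negative with a median of -0.18, and the lowest p belonged to Icos (-0.52 ± 0.09), Il21 (-0.55 ± 0.12), Trac (-0.36 ± 0.13) and Cd3d (-0.24 ± 0.10), with edgeR adjusted p between 0.0721 and 0.366. Cd8a and Cd8b1, markers of other T cells, summed to between 2.84 and 5.59 CPM in all libraries, at -1.41 ± 0.94 and -0.05 ± 0.29.

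Platelets share blood vessels and a precursor with red cells, and their 15 markers summed to between 5.53 and 17.5 CPM in WT/mut and between 3.42 and 5.51 CPM in WT libraries, nearly touching. Of them 4 were tested, all positive, with a median of 0.56. They were Itgb3 (1.82 ± 1.02), Pf4 (0.84 ± 0.84), Nrgn (0.27 ± 0.41) and Itga2b (0.09 ± 1.04), with edgeR adjusted p between 0.481 and 0.977. Gp1bb and Treml1 had 0 counts in every library. The neutrophil genes S100a8 and S100a9, abundant in blood, had 4 and 5 counts in the WT/mut group and 5 and 0 in the WT group. The 15 neutrophil and monocyte markers summed to 47.9 to 277 CPM in WT/mut libraries, against 43.5 to 157 CPM in WT libraries. Of them 7 were tested with a median of 0.49, and Csf3r (1.28 ± 0.67), Csf1r (0.94 ± 0.62), Cd14 (1.14 ± 1.03) and Cxcr2 (0.49 ± 0.54) had the lowest p.

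The 12 genes of macrophages that take up old red cells summed to 63.8 to 240 CPM in WT/mut libraries, against 65.1 to 145 CPM in WT libraries. All 9 tested were positive with a median of 0.53. C1qa (1.05 ± 0.56), C1qb (0.68 ± 0.62), Timd4 (1.08 ± 0.99) and C1qc (0.60 ± 0.61) had the lowest p, and Hmox1 is described above. WT/mut replicate 6, second highest in globin, had the highest macrophage sum, and replicate 10, highest in globin, the lowest.

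Plasma cell markers summed to 2335 to 3352 CPM in WT/mut libraries, against 2147 to 2683 CPM in WT libraries, with a median of 0.94 over 13 tested genes. The antibody genes Jchain (2.86 ± 0.53), Igha (3.29 ± 0.66), Igkc (1.63 ± 0.45) and Iglc1 (4.30 ± 1.20) had the lowest p (edgeR adjusted p between 0.0904 and 0.260). With the plasma cell marker level as a covariate, the log2 fold changes were 1.92 ± 0.39 for Hbb-bs, 2.57 ± 0.73 for Hbb-bt, 1.59 ± 0.41 for Hba-a1, 1.55 ± 0.40 for Hba-a2 and 1.61 ± 0.40 for Alas2 (edgeR adjusted p between 0.257 and 0.294). That level was the log2 of the summed CPM of the list. In it, Ighm (-0.17 ± 0.12) averaged 1725 of 2966 CPM in WT/mut and 1947 of 2387 CPM in WT libraries. Most of the level was therefore Ighm, and the part of plasma cells in the globin values was not tested by this fit. B cell markers summed to 277 to 652 CPM in WT/mut libraries, against 136 to 360 CPM in WT libraries, with all 12 positive, a median of 0.65, and Spib (1.96 ± 0.66), Cr2 (1.3 ± 0.49), Cd79a (0.99 ± 0.40) and Cd22 (0.47 ± 0.22) of lowest p.

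Epithelial markers were lower in WT/mut by their median, with sums of 51.5 to 376 CPM in WT/mut libraries, against 182 to 679 CPM in WT libraries, and a median of -0.73 over 12 tested genes. Fabp1 (-1.93 ± 0.64), Cdh17 (-1.74 ± 0.59), Lyz1 (0.95 ± 0.41) and Epcam (-0.81 ± 0.48) had the lowest p. Endothelial and stromal markers summed to 200 to 257 CPM in WT/mut libraries, against 157 to 237 CPM in WT libraries, with a median of 0.31 over 8 tested genes, led by Madcam1 (2.71 ± 0.94), Plvap (1.92 ± 1.29), Vim (0.37 ± 0.25) and Col4a1 (1.25 ± 1.44). Of 6 mast cell genes 0 were tested, and their sum stayed at or under 3.37 CPM.

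**Figure D4:**
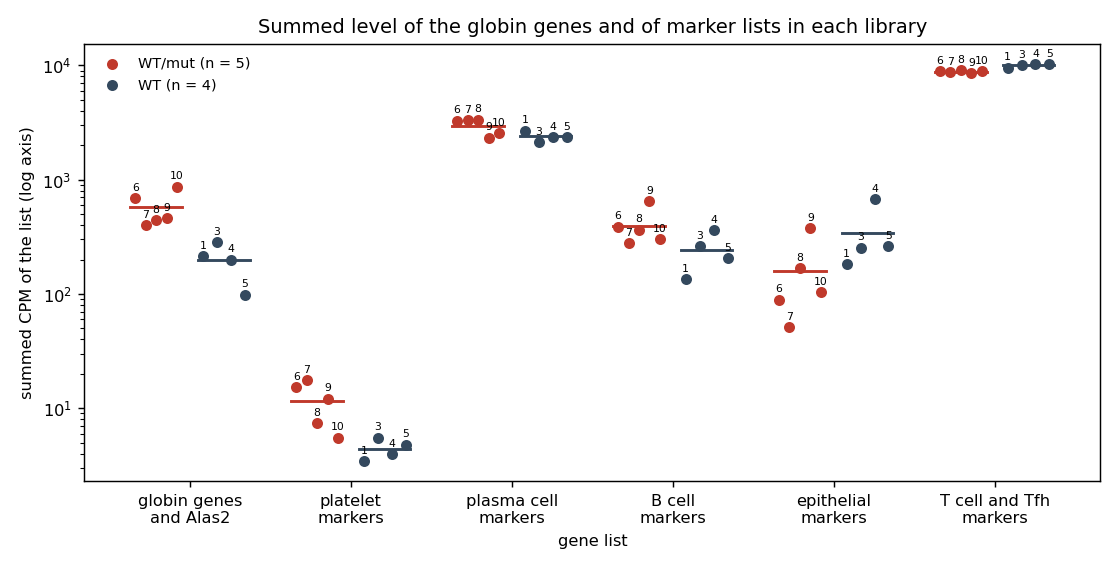
Summed CPM of the 5 genes and of 5 marker lists in each library, on a log axis; points are libraries with replicate numbers and bars are group means (WT/mut, n = 5; WT, n = 4). The globin and Alas2 sum lies between 401 and 870 CPM in WT/mut libraries, against 98.5 and 282 CPM in WT libraries, and the T cell and Tfh sum lies lower in all WT/mut libraries, between 8610 and 9051 CPM.

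Libraries held 29488851 to 37342778 counts in the WT/mut group and 32977949 to 43872732 in the WT group. The ranges overlapped, with the smallest library in the WT/mut and the largest in the WT group. WT/mut replicate 7 stood apart in having 30143 detected genes, against 17904 to 20264 in the other 8. It was also the lowest WT/mut library in summed globin. Without it the log2 fold changes were 1.69 for Hbb-bs, 2.06 for Hbb-bt, 1.57 for Hba-a1, 1.56 for Hba-a2 and 1.61 for Alas2 (edgeR adjusted p between 0.13 and 0.454).

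Genes outside the hemoglobin group with the pattern most like Hbb-bs were ranked by Pearson's r of log2 CPM over the 9 libraries, as a description. Hba-a2 had r = 0.96, Hbb-bt 0.96, Hba-a1 0.95 and Alas2 0.86, and 82 tested genes had a higher r than Alas2. The 10 other genes of highest r were Egln1 (0.98), which encodes an oxygen-sensing prolyl hydroxylase, Ankrd13b (0.96), Zfp282 (0.96), the proline dehydrogenase gene Prodh (0.95), the protease inhibitor gene Cst7 (0.94), the chloride transporter gene Clcn3 (0.93), Pdcd4 (0.93), Sez6 (0.93), the elongation factor kinase gene Eef2k (0.93) and Afap1l1 (0.92). All 10 were higher in WT/mut, with log2 fold changes between 0.33 for Pdcd4 and 2.72 for Sez6, so that the group difference enters each r. The libraries also share their depth and make-up with both genes of a pair.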

How the data were processed

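Messenger RNA of sorted Tfh cells was sequenced from 300 pg of RNA per library with a SMART-Seq kit that does not mark the strand, per the labels' protocols. The authors deposited 1 table, in which reads had been assigned to genes in the form of expected counts (estimated counts that need not be whole). The tools named, per the submitters' processing notes, were RSEM 1.3.0, STAR 2.5.3, cutadapt 2.10 and DESeq2, with build mm10, and no annotation release is named there. WT columns were matched to samples by name, and the other columns, whose prefix the labels do not explain, by their replicate numbers 6 to 10. Expected counts were rounded to whole numbers. Genes were tested mainly with edgeR 4.0.16 in R 4.3.3, by its quasi-likelihood fit (robust, TMM, filterByExpr with minimum count 10 and total 15, no covariate), with Benjamini-Hochberg adjustment over all 15521 tested genes and a threshold of 0.05. An SE was taken as the size of the log2 fold change over the root of F. Log2 CPM used a prior count of 2. Alternatives were DESeq2 1.42.0, limma 3.58.1 (voom with library weights), other size factors and filters, a non-robust fit, covariates, summed copies and leaving out each library; the fits were checked on simulated counts. Intervals cover the sampling of reads only. No molecular identifiers are mentioned, so reads amplified from 1 molecule could not be told from separate molecules. The error of the split between near-identical copies is not covered either.

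Gene positions, exon lengths and transcripts are those of GENCODE M21 on GRCm38, which held 54079 of the 54146 gene identifiers; promoters are from RefSeq (GRCm38.p6), where all 5 genes matched by symbol. The 5 genes and the 17 other lists were chosen with earlier results of these data known. The text names the 5 genes, all other hemoglobin genes and heme enzymes, the 4 tested members of lowest p of each other list, and the 10 genes most like Hbb-bs; other names are said to be chosen after their values were seen or serve to show a defining marker near 0 (DESeq2's calls also). Some genes that this rule names are not reported here. In the late red cell list 24 of 25 genes were found, and Ahsp, Hbb-b1 and Hbb-b2 were not analysed here.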

Additional observations from a re-analysis of the deposited data

How the results depend on the processing

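The 5 genes kept a positive fold change under every alternative run. Log2 fold changes lay between 1.38 and 1.92 for Hbb-bs, 1.57 and 2.66 for Hbb-bt, 1.21 and 1.67 for Hba-a1, 1.22 and 1.66 for Hba-a2, and 1.27 and 1.62 for Alas2. The call changed under DESeq2 alone, which called Hbb-bs (1.59), Hbb-bt (1.94), Hba-a1 (1.47), Hba-a2 (1.45) and Alas2 (1.50); the cause was not tested. Adjusted p over the other alternatives lay between 0.0893 and 0.522. The number of genes called, 19 with the main test, was 495 with DESeq2, 34 with limma-voom, 1 with the number of detected genes and 1 with the plasma cell marker level as a covariate, and 2 to 23 without 1 library. The Alas2 to globin log2 difference of -0.13 turned to 0.16 with group medians and lay between -0.32 and 0.26 without 1 library. The other ratios kept their sign, with the Hbb-bt share at 2.02 to 6.16 percentage points and the alpha to beta log2 ratio at -0.35 to -0.02 without 1 library. No paired analysis was possible because the groups share no replicate number.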

Other observations

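With each group's mean subtracted, so that the genotype no longer enters, the likeness to Hbb-bs changed for Alas2. Over the 9 libraries r was then 0.91 for Hbb-bt, 0.86 for Hba-a2, 0.83 for Hba-a1 and 0.39 for Alas2, and 2773 tested genes had a higher r than Alas2. The 10 other genes of highest r were Pebp1 (0.97), Vgll4 (0.97), Atg9a (0.94), Ankrd13b (0.94), Gpx1 (0.94), Pgam1-ps2 (0.93), Lmf1 (0.93), Egln1 (0.93), Fbxl8 (0.92) and RP23-104G16.1 (0.92). Ankrd13b and Egln1 were among the 10 genes of both rankings. These values are a description of 9 libraries and carry no test.

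WT replicate 1, which had the highest alpha to beta ratio, was also the highest of the 9 libraries in the summed level of the heme synthesis enzymes, at 814 CPM against at most 639 in the others, and of the late red cell list, at 12051 CPM against at most 6747. Ubb, a gene that T cells use as well, alone held 10215 CPM of that late red cell sum, which is no measure of red cells.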
